A study of Mus musculus with 2 samples.

Results

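The MHC class I pathway was followed in bone marrow multipotent progenitors through 10 genes, named by symbol among the 27998 genes counted: B2m, H2-K1, H2-D1, H2-Q4, Psmb8, Psmb9, Psmb10, Tap1, Tap2 and Tapbp. The genes were taken by name and not by a cut on any value measured here. Earlier results of these data were known when they were chosen. Multipotent progenitors (MPPs) descend from haematopoietic stem cells and give rise to both lymphoid and myeloid blood cells. They were sorted from total bone marrow as lineage-negative, Sca-1+, c-kit+, CD34+ and Flt3L+ (the last as the labels spell it). The series holds 1 sample of C57BL/6 wild-type mice and 1 of C57BL/6 Spp1-/- mice, which lack osteopontin, a secreted matrix protein and cytokine. Both were taken 20 h after intraperitoneal thioglycollate, which causes a sterile peritonitis, and no untreated sample is among them. Neither the number of mice per sample nor the Spp1-/- allele is given in the labels.

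MHC class I molecules show peptides from inside the cell to CD8 T cells and natural killer cells. Each is a heavy chain, such as H2-K1 or H2-D1, held together with the light chain beta-2-microglobulin, which B2m encodes. The peptides are cut by the proteasome. In cells of the immune system and after interferon its catalytic subunits PSMB5, PSMB6 and PSMB7 are replaced by the immunoproteasome subunits PSMB8, PSMB9 and PSMB10. TAP1 and TAP2 form the transporter that carries peptides into the endoplasmic reticulum, and tapasin, from Tapbp, holds empty class I molecules at that transporter. Transcription of this pathway is known to respond to interferon and to the class I transactivator NLRC5.

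Of the 10 genes, 8 lie on chromosome 17, in the mouse MHC or beside it, and their annotated positions are from GENCODE M21 on GRCm38. H2-K1 (ENSMUSG00000061232) spans 33996017 to 34000347 on the minus strand, H2-D1 (ENSMUSG00000073411) 35262730 to 35267499 and H2-Q4 (ENSMUSG00000035929) 35379617 to 35385290, both on the plus strand. Psmb9 (34181987 to 34187764, minus strand), Tap1 (34187553 to 34197225), Psmb8 (34197721 to 34201454) and Tap2 (34203527 to 34216321, all plus strand) follow one another, and Tapbp lies at 33915899 to 33929292. B2m is on chromosome 2 at 122147686 to 122153083, and Psmb10 on chromosome 8 at 105935735 to 105938444. All 10 are protein-coding.

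The sequence just before the start site is shown for the chain genes, whose summed level differed with interferon-response transcripts in both libraries, and for Psmb9 with Tap1, whose RefSeq start sites face away from each other across a short stretch. Promoters came from RefSeq on GRCm38.p6, and 9 of the 10 genes had an entry (not Tap2). Each is written 5′ to 3′ along the gene's own strand. The stretches are chr17:34000354-34000462 (minus strand) for H2-K1, chr17:35262919-35263050 (plus) for H2-D1, chr17:35379439-35379571 (plus) for H2-Q4 and chr2:122147538-122147648 (plus) for B2m. Capitals mark GGGATTNCC (a form of the NF-kB motif), GAANNGAAA or GAAANNGAA (forms of the interferon-stimulated response element) and CCAAT, each on either strand, so that GAANNGAAA can appear as TTTCACTTC and CCAAT as ATTGG.
H2-K1: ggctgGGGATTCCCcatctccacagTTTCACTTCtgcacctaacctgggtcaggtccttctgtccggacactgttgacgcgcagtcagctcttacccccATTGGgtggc
H2-D1: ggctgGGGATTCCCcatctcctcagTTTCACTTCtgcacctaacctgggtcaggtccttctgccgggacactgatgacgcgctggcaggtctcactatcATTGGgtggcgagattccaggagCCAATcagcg
H2-Q4: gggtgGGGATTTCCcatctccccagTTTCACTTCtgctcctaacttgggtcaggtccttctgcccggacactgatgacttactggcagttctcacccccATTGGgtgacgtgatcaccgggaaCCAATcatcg
B2m: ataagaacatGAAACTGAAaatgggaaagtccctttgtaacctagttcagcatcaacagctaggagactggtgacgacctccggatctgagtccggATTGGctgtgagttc
The stretch between the RefSeq start sites of Psmb9 and Tap1, chr17:34187331-34187555, is given on the plus strand. It is 225 bases long and separates start sites that point in opposite directions, although the GENCODE spans of both genes overlap at their 5′ ends.
Psmb9 and Tap1: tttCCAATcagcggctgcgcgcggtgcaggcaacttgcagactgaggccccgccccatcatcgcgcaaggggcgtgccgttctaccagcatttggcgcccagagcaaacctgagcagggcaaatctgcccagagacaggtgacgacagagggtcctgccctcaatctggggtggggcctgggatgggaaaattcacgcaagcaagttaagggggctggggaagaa

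The 3 heavy chain genes held the same series of motifs in the same order, with GGGATTNCC upstream, GAANNGAAA next and CCAAT nearest the start. Of 32851 mouse windows of the 250 bases before a start site, 270 held GGGATTNCC on either strand (0.822%). GAANNGAAA was in 6.31% of windows, GAAANNGAA in 7.13% and CCAAT in 33.9%. B2m held GAAANNGAA 139 bases before its start and CCAAT on the other strand, and the stretch of Psmb9 and Tap1 held a CCAAT only. None of the first 3 motifs was in the windows of Psmb8, Psmb9, Psmb10, Tap1 or Tapbp. The motifs were picked with the sequences in view, none of the printed matches overlap, and a match of letters is not evidence of a bound site.

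The heavy chain genes are alike before their start sites, and their 3′ ends, which matter for counting, were compared apart. Over 250 bases before the start site, H2-K1 and H2-D1 were identical at 87.9% of aligned bases, H2-K1 and H2-Q4 at 85.4%, and H2-D1 and H2-Q4 at 85.9%. Counts come from the 3′ end, so the last 300 bases of each gene's longest protein-coding transcript were searched for stretches of 50 bases that recur in another gene. For H2-K1 2 of 251 such stretches recurred (0.797%), both in H2-D1. For H2-D1 17.1% recurred and for H2-Q4 45.4%, in 80 and 52 other genes, and for the other 7 genes none did. For H2-D1 these other genes included Adsl and Kcnk4, with 22 stretches each, and H2-K1 was the only heavy chain gene. No heavy chain gene was among those of H2-Q4. The sources used here do not say how reads that match several genes were counted. How far this changed the counts of H2-D1 and H2-Q4 is uncertain.

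The counts form 1 pooled matrix with 2 barcode suffixes that no label ties to a genotype, so they are called library 1 and library 2 and nothing is attributed to a genotype. Spp1, the gene lacking in the mutant, had 33 and 1 counted molecules (UMIs). Its counts were not used to assign a genotype. Library 1 gave 3253 kept cells with 10118499 UMIs and library 2 4570 cells with 18750468 UMIs, at medians of 2830 and 3836 UMIs per cell. Of the sort markers, Cd34 had a UMI in 67.8% and 80.4% of cells, Ly6a (Sca-1) in 54.4% and 59.0%, Flt3 in 30.3% and 41.6% and Kit in 10.1% and 13.6%. Cd3e and Ly6g, lineage markers of T cells and neutrophils, had 0 UMIs in each library. In all 32 barcode sequences occurred in both libraries. With 1 library per genotype nothing could be tested against replicates. Intervals are exact 95% intervals for counting error alone, and a gene is said to pass the fold when its log2 ratio was at least 0.32 or at most the negative of that, whatever its interval.

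B2m was the most abundant of the 10 transcripts in both libraries, and the levels of the chain genes and the immunoproteasome genes overlapped. Levels are UMIs per 1000000 UMIs (CPM), in which 1 molecule counts once at its 3′ end and gene length does not enter, although genes may differ in capture. B2m stood at 2631 CPM (2600 to 2663) in library 1 and 2398 CPM (2376 to 2421) in library 2. Psmb8 followed at 1328 CPM in each, with intervals of 1305 to 1350 and 1311 to 1344. An immunoproteasome subunit was thus the second most counted transcript of the set, above both classical heavy chains.

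H2-D1 was at 938 CPM (919 to 957) in library 1 and 1185 CPM (1170 to 1201) in library 2. H2-K1 was at 936 CPM (917 to 955) and 1069 CPM (1054 to 1084). These heavy chains could not be ranked in library 1, where their intervals overlap, and H2-D1 was above H2-K1 in library 2. Psmb9 came next at 307 and 317 CPM, then Psmb10 at 243 and 248 CPM. Tap1 (69.9 and 83.4 CPM), Tap2 (78.8 and 78.1 CPM) and Tapbp (71.5 and 74.5 CPM) lay together below them. Among these 3 the intervals of neighbours in the order overlapped in each library. H2-Q4, a non-classical heavy chain, was lowest at 20.8 CPM (18.0 to 23.8) and 26.0 CPM (23.8 to 28.4).

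**Figure D1:**
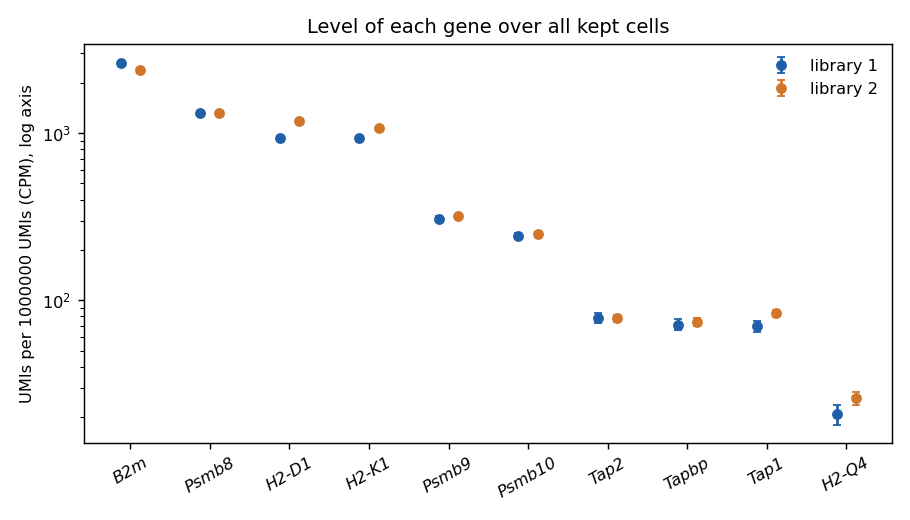
Level of each of the 10 genes over all kept cells of library 1 (3253 cells) and library 2 (4570 cells), in UMIs per 1000000 UMIs on a log axis, with exact Poisson 95% intervals where they are wider than the point. B2m is at 2631 and 2398 CPM, the peptide transporter genes and Tapbp lie between 69.9 and 83.4 CPM, and H2-Q4 is lowest.

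Detection in single cells followed the level. After each cell was thinned to 2000 UMIs, which kept 2444 and 4016 cells and left out 809 and 554 that were shallower, B2m had a UMI in 98.5% and 98.7% of cells. Psmb8 was seen in 92.9% and 92.0%, H2-K1 in 82.8% and 87.2%, and H2-D1 in 82.8% and 89.4%. The shares were 45.9% and 47.5% for Psmb9, 37.5% and 38.7% for Psmb10 and between 13.1% and 15.5% for Tap1, Tap2 and Tapbp. H2-Q4 was seen in 4.09% and 5.05% of cells. No cell type that lacks class I was in the sort, so the share that free RNA alone would give could not be read from these data.

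Of the 10 genes, B2m had the highest variance over the mean from cell to cell, and also the highest mean. In thinned cells the median was 5 B2m UMIs in each library, with 2 at the 10th percentile and 9 and 8 at the 90th. The variance over the mean, which is about 1 for pure counting, was 1.47 and 1.41 for B2m. For the other 9 genes it ran from 0.993 to 1.20, with H2-K1 at 1.19 and 1.20. At a like relative spread this value rises with the mean. The mean was 5.32 and 4.94 UMIs for B2m against 1.91 and 2.19 for H2-K1. Genes of unlike level therefore cannot be ranked by spread from it. As a description across cells of 1 library, B2m followed the summed interferon-response transcripts with Pearson r of 0.199 over 2444 cells and 0.191 over 4016 cells. It followed H2-K1 with 0.099 and 0.166. Psmb9 and Tap1, which share the stretch printed above, gave 0.010 and 0.021. All of these are weak and share depth-limited counts.

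Immunoproteasome and constitutive subunits were transcribed side by side, and the balance differed by pair. Psmb8 had 13435 and 24897 UMIs against 1737 and 4497 of its constitutive counterpart Psmb5, and made up 88.6% (88.0 to 89.1) and 84.7% (84.3 to 85.1) of the pair. Psmb9 made up 33.2% (32.3 to 34.2) and 32.5% (31.8 to 33.2) of the UMIs of Psmb9 and Psmb6. Psmb10 made up 45.9% (44.5 to 47.2) and 47.8% (46.8 to 48.8) of Psmb10 and Psmb7. Only the first pair was dominated by the immunoproteasome form in both libraries. These shares do not depend on how libraries are scaled.

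The balance of the pairs varied little among cell classes, defined in the next paragraph. Psmb8 held 87.1% to 89.9% of its pair in library 1 and 83.5% to 85.8% in library 2 across the stem-, lymphoid- and myeloid-high, mitotic-low and -high, and interferon-zero and -high cells. Psmb9 held its highest share in lymphoid-high cells, at 35.5% (33.3 to 37.7) and 35.9% (34.4 to 37.3), against 32.1% (30.1 to 34.2) and 30.5% (29.1 to 31.9) in myeloid-high cells. The Psmb10 share was 51.8% (49.0 to 54.6) in mitotic-low and 44.3% (42.7 to 45.9) in mitotic-high cells of library 2. In library 1 the same values were 44.4% (41.1 to 47.6) and 42.4% (39.4 to 45.4), which overlap.

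**Figure D2:**
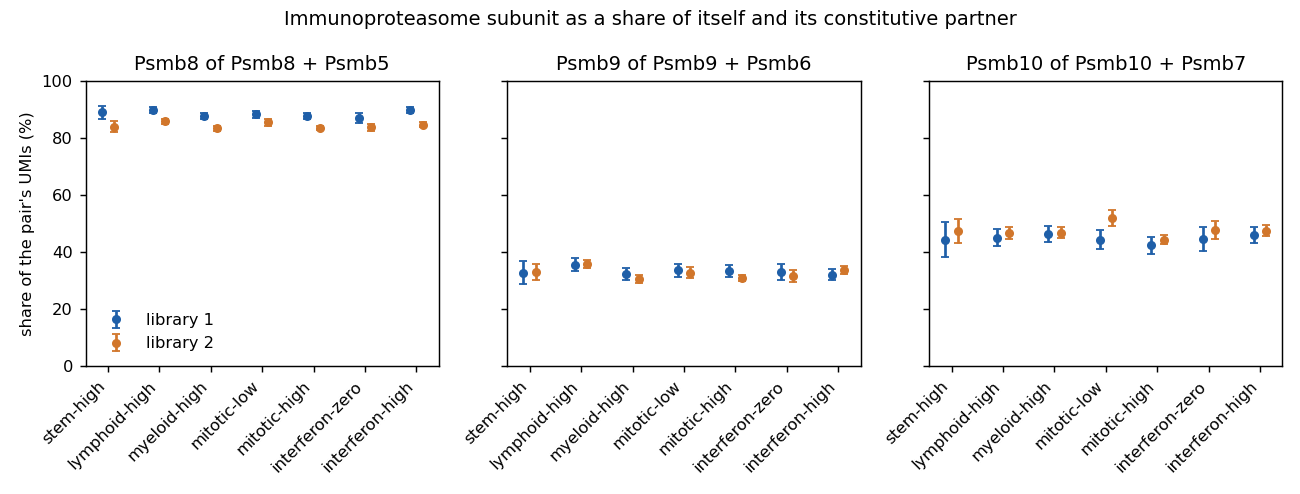
Share of each pair's UMIs that came from the immunoproteasome subunit, in percent with exact binomial 95% intervals, for 7 cell classes of library 1 and library 2. Psmb8 stays between 83.5% and 89.9% of its pair in every class shown, while Psmb9 is at 35.5% and 35.9% in lymphoid-high cells and Psmb10 lies higher than Psmb9 throughout.

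Cell classes were ranges of summed transcripts in thinned cells and not cell types. Stem-high cells had at least 2 UMIs of 17 stem cell genes (181 and 276 cells), lymphoid-high cells at least 2 UMIs of 13 lymphoid genes (591 and 1141 cells), and myeloid-high cells at least 5 UMIs of 14 myeloid genes (498 and 758 cells). Each was high for its own list and for neither of the other two lists. Many cells lie near a limit: 674 and 1002 cells had 1 UMI of the stem list, and 212 and 294 had exactly 2. Median depth was 3030 and 3556.5 UMIs in stem-high, 2921 and 3748 in lymphoid-high and 3888.5 and 5204 in myeloid-high cells, and its part in the ratios below was not tested.

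Class I chain transcripts were lowest in myeloid-high cells, and B2m carried most of that difference. B2m was at 2704 CPM (2573 to 2839) in stem-high, 2839 CPM (2764 to 2917) in lymphoid-high and 2089 CPM (2029 to 2151) in myeloid-high cells of library 1. In library 2 it was at 2516 CPM (2423 to 2612), 2578 CPM (2531 to 2625) and 2020 CPM (1978 to 2063). In both libraries myeloid-high cells were thus apart from the other classes, whose intervals overlapped. Lymphoid-high over myeloid-high, the ratio was 1.36 (1.31 to 1.41) and 1.28 (1.24 to 1.31). Myeloid-high over stem-high, it was 0.773 (0.730 to 0.819) and 0.803 (0.769 to 0.838), the second just short of the fold. The MHC class II genes H2-Aa, H2-Ab1, H2-Eb1 and Cd74, which mark dendritic cells and B cells, summed to 599, 271 and 1237 CPM in stem-, lymphoid- and myeloid-high cells of library 1 and to 236, 245 and 174 CPM in library 2. With cells of at least 20 class II UMIs left out, the B2m log2 ratio lymphoid-high over myeloid-high was 0.45 and 0.35, against 0.44 and 0.35 with them.

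H2-K1 was at 961, 905 and 846 CPM in stem-, lymphoid- and myeloid-high cells of library 1 and at 1205, 1091 and 919 CPM in library 2. Myeloid-high over stem-high, its ratio was 0.881 (0.801 to 0.969) and 0.763 (0.716 to 0.812), past the fold in library 2. H2-D1 was at 906, 949 and 886 CPM, and at 1151, 1236 and 1104 CPM, with no ratio past the fold between these classes. H2-Q4 was at 28.5, 20.8 and 18.9 CPM and at 31.1, 26.4 and 20.5 CPM, on 17 to 119 UMIs, and its intervals for myeloid-high over stem-high (0.368 to 1.24 and 0.439 to 1.01) include 1.

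Within the chain genes the balance itself differed, which no scaling of libraries can change. B2m made up 60.2% (59.2 to 61.3) of chain UMIs in lymphoid-high and 54.4% (53.3 to 55.5) in myeloid-high cells of library 1. In library 2 the shares were 52.3% (51.6 to 52.9) and 49.7% (49.0 to 50.5). H2-D1 made up 48.9% (46.9 to 50.8) of the UMIs of H2-D1 and H2-K1 in stem-high cells of library 2, against 54.6% (53.5 to 55.6) in myeloid-high cells. In library 1 these shares were 48.5% (45.5 to 51.5) and 51.1% (49.5 to 52.8), which overlap.

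The lower B2m of myeloid-high cells was seen among mitotic-high and other cells, and in the lowest and highest groups by interferon-response transcripts. Cells between these interferon groups were not compared in this way. Lymphoid-high over myeloid-high, B2m was at 1.38 (1.27 to 1.50) and 1.28 (1.23 to 1.34) among mitotic-high cells, and at 1.35 (1.29 to 1.41) and 1.26 (1.21 to 1.31) among the others. Among cells with no interferon-response UMI it was at 1.33 (1.17 to 1.50) and 1.34 (1.23 to 1.46), and among interferon-high cells at 1.30 (1.21 to 1.41) and 1.26 (1.20 to 1.33). The ratio was past the fold in each of these 8 comparisons.

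**Figure D3:**
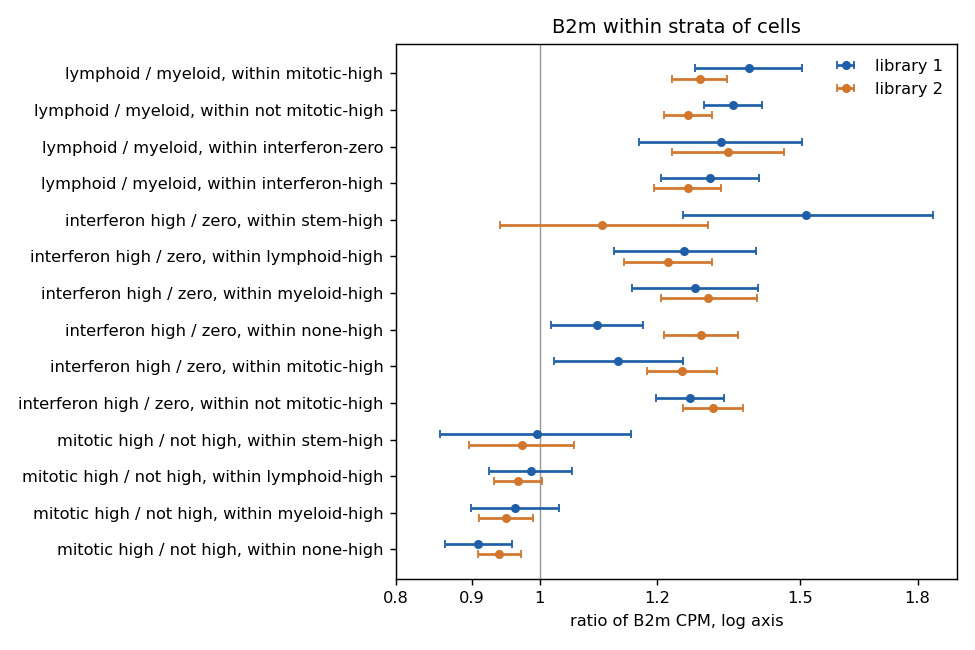
Ratio of B2m CPM between cell classes, recomputed inside strata of cells, on a log axis with exact 95% intervals for library 1 and library 2. The lymphoid over myeloid ratios lie between 1.26 and 1.38 in every stratum, the interferon-high over interferon-zero ratios between 1.09 and 1.51, and the ratios of mitotic-high to other cells between 0.909 and 0.995.

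Immunoproteasome transcripts followed another pattern, lowest in stem-high cells and near one another in lymphoid- and myeloid-high cells. The 3 genes summed to 1709 CPM (1606 to 1817) in stem-high, 2028 CPM (1964 to 2094) in lymphoid-high and 1973 CPM (1914 to 2033) in myeloid-high cells of library 1. In library 2 the sums were 1730 CPM (1653 to 1810), 1995 CPM (1954 to 2037) and 1921 CPM (1879 to 1963). Lymphoid-high over myeloid-high, the ratio of the sums was 1.03 (0.984 to 1.07) and 1.04 (1.01 to 1.07). Psmb8 set this order, at 1224, 1419 and 1418 CPM and at 1172, 1409 and 1353 CPM. Lymphoid-high over stem-high, Psmb8 was at 1.16 (1.07 to 1.26) and 1.20 (1.13 to 1.28), under the fold. The summed ratio was 1.12 (0.930 to 1.35) and 1.12 (1.02 to 1.22) among mitotic-high cells, and 1.20 (1.12 to 1.30) and 1.17 (interval above 1) among the others. The 11 core proteasome genes beside the catalytic ones also summed lowest in stem-high cells. They were at 5182.3, 5677.2 and 6035.2 CPM in stem-, lymphoid- and myeloid-high cells of library 1. In library 2 they were at 5761.5, 5988.8 and 6592.5 CPM.

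Psmb9 and Psmb10 differed between lymphoid- and myeloid-high cells in opposite senses. Psmb9 was at 357 and 296 CPM in library 1 and 354 and 307 CPM in library 2 (ratios 1.21, 1.08 to 1.35, and 1.15, 1.07 to 1.24). Psmb10 was at 252 and 260 CPM and at 232 and 261 CPM (ratios 0.970, 0.856 to 1.10, and 0.889, 0.817 to 0.969). Tap2 was higher in lymphoid-high than in stem-high cells past the fold in both libraries (94.1 and 72.1 CPM, 87.2 and 68.6 CPM), with intervals of 0.930 to 1.87 and 0.992 to 1.65 that include 1. Tap1 lay under the fold in each comparison of stem-, lymphoid- and myeloid-high cells. Tapbp passed it once, at 59.3 CPM in lymphoid-high and 74.7 CPM in myeloid-high cells of library 1.

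The counts past the fold were read against all genes with at least 50 UMIs. Lymphoid-high over stem-high, 2 of 10 genes were higher (Psmb9 and Tap2) and 1 lower (H2-Q4) in library 1, where 17.3% of all genes were higher and 15.9% lower (33.2% in all). In library 2 it was 1 higher (Tap2) and 0 lower, against 14.8% and 16.7% (31.5% in all). Myeloid-high over stem-high, 1 was higher (Psmb10) and 2 lower (B2m and H2-Q4) in library 1, against 22.3% and 15.4% (37.7% in all), and 0 higher and 2 lower (H2-K1 and H2-Q4) in library 2, against 19.9% and 18.0% (37.8% in all). Lymphoid-high over myeloid-high, 1 was higher (B2m) and 1 lower (Tapbp) in library 1, against 13.1% and 19.1% (32.2% in all), and 3 higher (B2m, H2-Q4 and Tap2) and 0 lower in library 2, against 14.5% and 16.2% (30.6% in all). In each direction the count lies within 2 genes of what its percentage gives for 10. In this last comparison the median log2 ratio of the 10 was 0.10 and 0.18, and that of all genes -0.04 and -0.03. With ribosomal protein UMIs left out of the total, the genes higher and lower in it went from 1151 and 1288 to 1412 and 1037 in library 2.

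**Figure D4:**
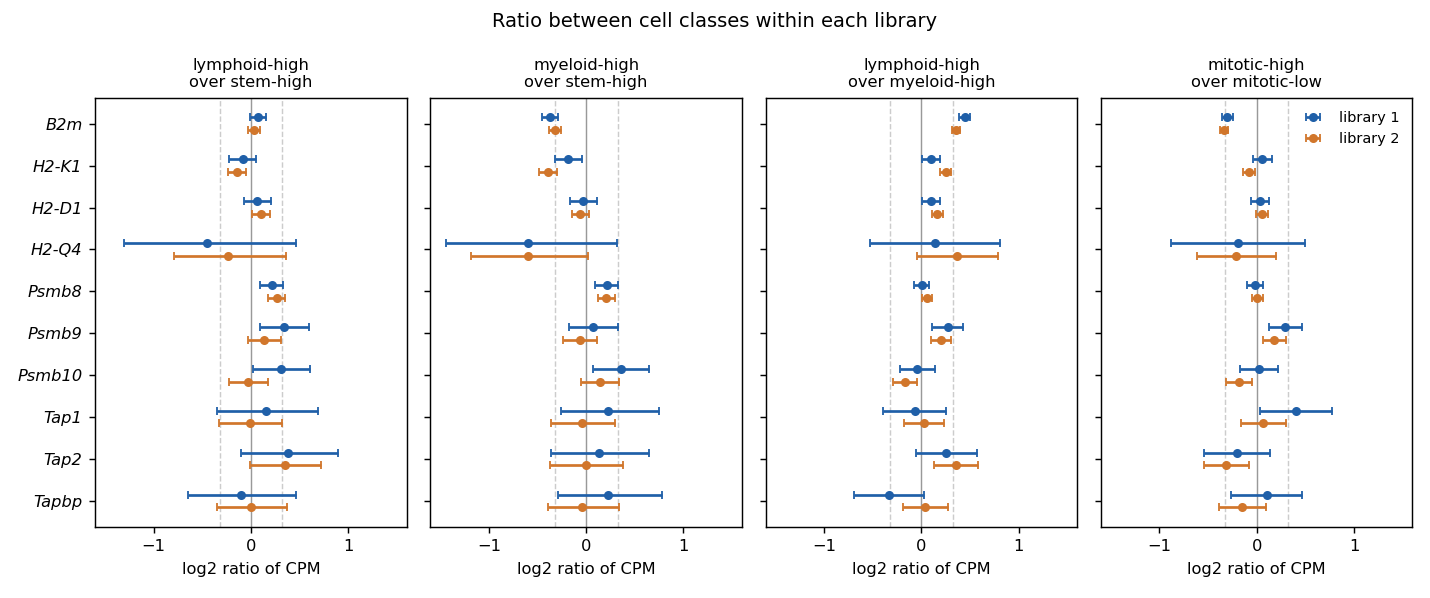
Log2 ratio of CPM for each gene in 4 comparisons of cell classes, with exact 95% intervals for library 1 and library 2; dashed lines mark a log2 ratio of 0.32 in each direction. B2m is higher in lymphoid-high than myeloid-high cells (0.44 and 0.35), Psmb8 is higher in both than in stem-high cells, and the intervals of H2-Q4 are the widest.

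B2m was also lower in cells with many mitotic transcripts, while the immunoproteasome sum was not. Mitotic-high cells had at least 7 UMIs of 24 genes of mitosis (464 and 1339 cells) and mitotic-low cells had 0 (616 and 806 cells). B2m was at 2364 CPM (mitotic-high) against 2917 CPM (mitotic-low) in library 1 and at 2261 against 2853 CPM in library 2, with ratios of 0.811 (0.779 to 0.843) and 0.792 (0.771 to 0.815). The immunoproteasome sum was at 1880 against 1829 CPM and at 1862 against 1851 CPM. Psmb9 was under the fold, but its intervals lay above 1 in both libraries, at 345 against 282 CPM and 323 against 285 CPM (ratios 1.23, 1.09 to 1.38, and 1.13, 1.04 to 1.24). Psmb10 was at 227 against 224 CPM in library 1 and lower in library 2, at 233 against 264 CPM. Tap2 was lower in both, at 72.7 against 83.9 CPM (ratio interval 0.684 to 1.10) and 73.0 against 90.8 CPM.

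The mitotic classes also differed in depth and in the other lists. Median depth was 4014 and 5164 UMIs in mitotic-high and 2625 and 2859 in mitotic-low cells. Myeloid-high cells were 23.7% and 24.4% of the mitotic-high and 14.9% and 9.31% of the mitotic-low cells. Interferon-high cells were 25.6% and 28.5% against 31.8% and 41.7%. The class II genes summed to 856 CPM in mitotic-low and 469 CPM in mitotic-high cells of library 1 and to 276 and 181 CPM in library 2, and their part was not tested. Inside the stem-, lymphoid- and myeloid-high classes, B2m in mitotic-high over all other cells was at 0.949 to 0.995, with 5 of 6 intervals including 1. The lowest such ratio, below this range, was in cells high for none of the stem, lymphoid and myeloid lists. All other cells are a wider group than the mitotic-low cells, so these ratios are not like those above. Past the fold were 1 of 10 genes in library 1 (Tap1, 75.7 against 57.4 CPM) and 1 in library 2 (B2m), where 36.2% and 42.5% of all genes were (22.7% and 24.6% higher, 13.5% and 17.8% lower). With ribosomal protein UMIs left out, genes higher and lower went from 1278 and 760 to 994 and 1040 in library 1, and from 2027 and 1467 to 1651 and 1803 in library 2.

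Chain transcripts were higher in cells with more interferon-response transcripts, and immunoproteasome transcripts much less so. Cells were sorted by their UMIs of 45 interferon-response genes, such as Ifit3 and Isg15, none of them among the 10. Cells with 0 numbered 282 and 398, and interferon-high cells, with at least 4, 649 and 1240. From 0 to 1, 2 to 3 and at least 4 UMIs, the 4 chain genes summed to 4094, 4145, 4268 and 4801 CPM in library 1 and to 4199, 4342, 4522 and 5086 CPM in library 2. The immunoproteasome sum was at 1832, 1938, 1890 and 1950 CPM and at 1872, 1922, 1906 and 1912 CPM. Most of the chain difference lay in the step to the highest group.

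B2m led this difference. It was at 2309 CPM (2220 to 2401) in interferon-zero and 2847 CPM (2777 to 2919) in interferon-high cells of library 1, and at 2087 CPM (2024 to 2152) and 2685 CPM (2641 to 2731) in library 2. The ratios were 1.23 (1.18 to 1.29) and 1.29 (1.24 to 1.33). H2-K1 was at 878 and 988 CPM, and at 1013 and 1133 CPM (ratios 1.13 and 1.12). H2-D1 was at 891 and 948 CPM, and at 1079 and 1238 CPM (ratios 1.06, 0.985 to 1.15, and 1.15, 1.09 to 1.21). B2m made up 56.4% (54.9 to 57.9) and 49.7% (48.6 to 50.8) of chain UMIs in interferon-zero cells and 59.3% (58.4 to 60.2) and 52.8% (52.2 to 53.4) in interferon-high cells.

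Of the other genes Psmb8, at 1286 and 1403 CPM in library 1 (ratio 1.09, 1.02 to 1.16) and 1320 and 1335 CPM in library 2 (1.01, 0.967 to 1.06), differed in the first library only beyond counting error, and the difference between libraries was not tested. Psmb9, Psmb10, Tap1, Tap2 and Tapbp had intervals that include 1 in both libraries. H2-Q4 was at 16.5 and 17.8 CPM, and at 19.4 and 29.2 CPM (ratio 1.51, 1.05 to 2.21, in library 2). Past the fold were 0 of 10 genes in library 1, where 27.4% of all genes were (15.1% higher, 12.3% lower), and 2 in library 2 (B2m and H2-Q4), where 25.3% were (14.4% higher, 10.9% lower). No test was possible with 1 library each, so these are counts by fold alone. In each library 9 of 10 genes lay above the median of all genes, at medians of 0.12 and 0.13 (log2) against -0.00414 and 0.00273.

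The mix of classes differed along the interferon list, and the chain difference was also seen inside each class. Lymphoid-high cells were 17.0% and 25.4% of interferon-zero and 29.0% and 31.6% of interferon-high cells, and myeloid-high cells 25.9% and 23.6% against 16.5% and 15.1%. Inside the stem-, lymphoid- and myeloid-high and no-list-high cells the chain ratio was 1.07 to 1.37 in library 1 and 1.13 to 1.24 in library 2, with all 8 intervals above 1. The immunoproteasome ratio was 1.04 to 1.13 and 0.963 to 1.16 there, with 7 of 8 intervals including 1. Inside mitotic-high cells the chain ratio was 1.13 (1.05 to 1.22) and 1.21 (1.16 to 1.26) and the immunoproteasome ratio 1.14 (1.01 to 1.28) and 1.03 (0.970 to 1.09). The class II genes summed to 309 CPM in interferon-zero and 775 CPM in interferon-high cells of library 1 and to 165 and 288 CPM in library 2. In each library 4 of 4 were higher past the fold, against 15.1% and 14.4% of all genes. With class II-high cells left out, the B2m log2 ratio was 0.30 and 0.36, as with them. Median depth was 3488 and 4545.5 UMIs in interferon-zero and 3002 and 3815 in interferon-high cells, and its part was not tested.

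**Figure D5:**
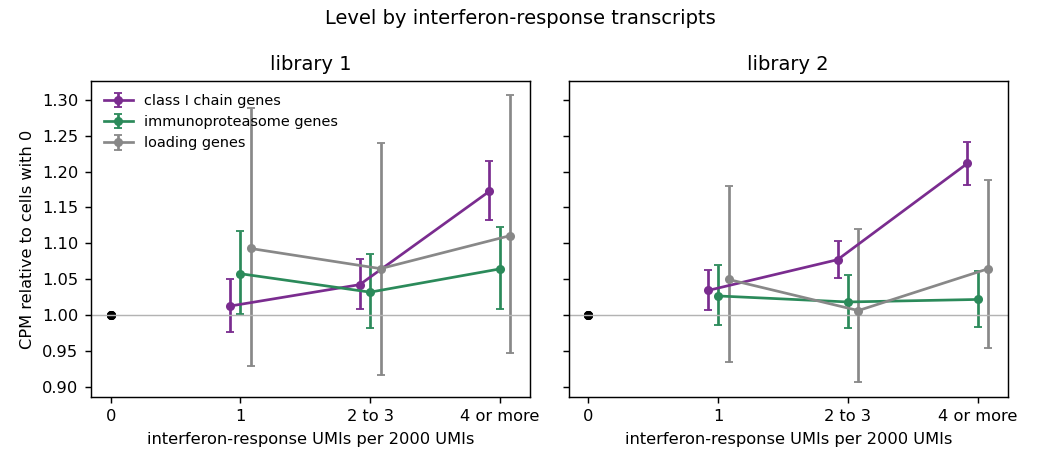
Summed CPM of the class I chain genes (B2m, H2-K1, H2-D1, H2-Q4), the immunoproteasome genes (Psmb8, Psmb9, Psmb10) and the loading genes (Tap1, Tap2, Tapbp), relative to cells with 0 interferon-response UMIs, by number of such UMIs per 2000, with exact 95% intervals; the black point at 1 is the reference. The chain genes reach 1.17 and 1.21 in cells with 4 or more, and the immunoproteasome genes 1.06 and 1.02.

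Between the libraries the summed levels of the 3 groups were near one another, while single chains differed in opposite senses. Library 2 over library 1, the log2 ratio was 0.05 (0.03 to 0.06) for the chain sum, 0.01 (-0.01 to 0.04) for the immunoproteasome sum and 0.10 (0.03 to 0.17) for the loading sum, where the median of all genes was 0.11. B2m was at -0.13 (-0.16 to -0.11), H2-K1 at 0.19 (0.16 to 0.23) and H2-D1 at 0.34 (0.30 to 0.37). B2m therefore made up 58.1% (57.7 to 58.6) of chain UMIs in library 1 and 51.3% (50.9 to 51.6) in library 2. The H2-D1 ratio was 0.32 to 0.38 and the B2m ratio -0.05 to -0.14 inside the stem-, lymphoid-, myeloid- and no-list-high classes. In myeloid-high cells the B2m interval (-0.10 to 0.00) includes 0. The class II genes summed to 791 CPM in library 1 and 231 CPM in library 2.

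Past the fold were 2 of 10 genes, H2-D1 and H2-Q4, where 25% of 10098 genes were, 17.5% higher and 7.5% lower. Both calls ended under TMM scaling (0.23 and 0.22), median-of-ratios scaling (0.24 and 0.23), with ribosomal protein UMIs left out (0.25 and 0.24) and with the mean over cells (0.30 and 0.28). Without class II-high cells H2-D1 was at 0.34 and H2-Q4 at 0.31, under the fold. Under TMM the median over all genes was 0.00527 in place of 0.11, and the genes higher and lower numbered 1058 and 1212 in place of 1772 and 757. The share of ribosomal protein UMIs was 35.9% in library 1 and 32.0% in library 2. With 1 library per genotype, genotype and preparation cannot be told apart.

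Several other class I genes were also lower in myeloid-high cells, but not each of them. Of the class I genes beyond the 10, 5 had at least 50 UMIs in library 1 and 6 in library 2 for myeloid-high over stem-high, and 4 in each were lower past the fold, against 15.4% and 18.0% of all genes. H2-M3, a class I gene that presents formylated peptides, was higher past it in library 2 (20.1 CPM in stem-high and 25.7 CPM in myeloid-high cells) and lower in library 1 (30.2 and 22.6 CPM), with intervals that include no difference. H2-Q7, a non-classical heavy chain, was at 215 CPM in stem-high and 146 CPM in myeloid-high cells of library 1, and at 164 and 109 CPM in library 2 (log2 ratios -0.55 and -0.59). H2-T22, another non-classical class I gene, was at 101 and 77.9 CPM, and at 98.7 and 78.2 CPM (-0.37 and -0.34, the first with an interval that includes 0). Lymphoid-high over myeloid-high, H2-T22 was at log2 ratios of 0.37 and 0.40. In that comparison 4 of 6 and 6 of 7 were higher past the fold, against 13.1% and 14.5% of all genes, and Hfe was lower past it in library 2 (6.88 against 8.95 CPM, with an interval that includes no difference). Among the higher was H2-T23, which encodes the Qa-1 molecule seen by natural killer receptors (41.0 and 78.6 CPM, 49.2 and 76.4 CPM in myeloid- and lymphoid-high cells). H2-M3 was at 22.6 and 28.9 CPM and at 25.7 and 33.5 CPM, and H2-Q6 at 12.4 and 18.2 CPM and at 12.2 and 18.6 CPM. For both, the library 1 interval includes no difference. H2-T23 was at log2 ratios of 0.38 and 0.41 lymphoid-high over stem-high, the first with an interval that includes 0. H2-T23 was also higher in interferon-high than interferon-zero cells, at 74.6 against 46.8 CPM and 72.9 against 52.6 CPM (log2 ratios 0.67 and 0.47). Of their 3′ stretches, 50.6% for H2-T23, 49.4% for H2-T22 and 40.2% for H2-Q6 recur in other genes, and none for H2-Q7 or H2-M3.

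The chaperone genes Calr and Hspa5 differed the other way. Calr, which encodes the folding chaperone calreticulin, was at 570 CPM in stem-high, 666 CPM in lymphoid-high and 1004 CPM in myeloid-high cells of library 1, and at 686, 635 and 1097 CPM in library 2. Hspa5, the chaperone BiP, was at 332 and 446 CPM in myeloid-high against 247 and 314 CPM in stem-high cells, and lymphoid-high over myeloid-high at log2 ratios of -0.39 and -0.41. Calr was lower in interferon-high than in interferon-zero cells (675 against 856 CPM, 757 against 983 CPM). Of 6 loading and folding genes, 4 and 2 were higher in myeloid- than in stem-high cells past the fold and none lower, against 22.3% and 19.9% of all genes higher, and the count in library 2 is near that share. Lymphoid-high over myeloid-high, 2 were lower in each library, against 19.1% and 16.2% of all genes. In library 1, Tapbpl was higher (35.3 against 27.2 CPM), and none was in library 2, against 13.1% and 14.5% of all genes.

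Around the immunoproteasome most transcripts lay under the fold between classes. Psme1, a subunit of the interferon-inducible proteasome activator, was at 661 and 666 CPM over all cells, and Pomp, the assembly factor, at 607 and 648 CPM. Neither passed the fold between classes in either library. Psme3, a nuclear activator subunit, was at 67.9 and 71.0 CPM in lymphoid-high and 88.1 and 105 CPM in myeloid-high cells. It was higher in mitotic-high than in mitotic-low cells (79.3 against 56.3 CPM, 88.7 against 68.2 CPM). Psma7 (1214 and 1312 CPM) and Psmb1 (639 and 669 CPM) were the most counted of the other core subunits. Of 11 other core proteasome genes, none passed the fold lymphoid-high over stem-high, lymphoid-high over myeloid-high, mitotic-high over mitotic-low or interferon-high over interferon-zero in either library. Myeloid-high over stem-high, 3 and 1 were higher, against 22.3% and 19.9% of all genes. Library 2 over library 1, the core subunit gene Psma4 was at 427 against 266 CPM.

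The regulators of class I ranged widely in level. Nlrc5, the class I transactivator, was at 7.51 and 5.65 CPM (76 and 106 UMIs). Irf2, an interferon regulatory factor, was at 54.5 and 69.0 CPM in lymphoid-high and 36.4 and 39.1 CPM in myeloid-high cells (log2 ratios 0.58 and 0.82). Irf1, which binds interferon response elements, was at 22.4 and 29.7 CPM against 15.7 and 20.7 CPM (0.52 in each), and its library 1 interval includes no difference. Rela, an NF-kB subunit, was at 30.4 and 30.2 CPM in myeloid-high and 45.3 and 42.0 CPM in stem-high cells, with intervals that include no difference. Nfyb, a subunit of the factor that binds CCAAT, was at 60.0 against 28.7 CPM in mitotic-high against mitotic-low cells of library 1 and 61.3 against 35.1 CPM in library 2. Suz12, a Polycomb subunit, was at 25.9 against 18.8 CPM and 30.7 against 8.88 CPM there, with a library 1 interval that includes no difference. In all 2 and 3 of the 12 and 13 regulators measured were higher in lymphoid- than in myeloid-high cells and 2 and 2 lower, against 13.1% and 14.5% of all genes higher and 19.1% and 16.2% lower, Irf8 being one of the myeloid list itself (30.2, 113 and 199.6 CPM in stem-, lymphoid- and myeloid-high cells of library 1, and 37.5, 165 and 293 CPM in library 2). Of the interferon receptor genes, Ifnar1 was higher past the fold in interferon-high cells of both libraries (21.5 against 15.6 CPM, 20.7 against 15.8 CPM), on 17 to 106 UMIs and with intervals that include 1. Ifnar2 was higher in lymphoid- than in stem-high cells (58.3 against 40.3 CPM, 67.7 against 46.6 CPM), with a library 1 interval that includes 1. Jak1, a kinase of these receptors, was at 88.9 and 87.8 CPM in stem-high cells and lower in lymphoid-high (59.9 and 59.7 CPM) and myeloid-high cells (54.9 and 61.5 CPM).

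The interferon-response list summed to 1320, 1427 and 1082 CPM in stem-, lymphoid- and myeloid-high cells of library 1 and to 1475, 1495 and 1188 CPM in library 2. Lymphoid-high over myeloid-high, 11 of 24 and 21 of 36 of its measured genes were higher past the fold, against 13.1% and 14.5% of all genes, and 1 was lower in each library, against 19.1% and 16.2%. The medians were 0.24 and 0.34 (log2). Lymphoid-high over stem-high, the list was mixed, with 6 higher and 3 lower of 20 in library 1 (median 0.09) and 6 higher and 8 lower of 31 in library 2 (median -0.13), where 17.3% and 14.8% of all genes were higher and 15.9% and 16.7% lower. Mitotic-high over mitotic-low, 11 of 24 and 24 of 36 were lower, against 13.5% and 17.8% of all genes, and none higher. The 5 abundant interferon-inducible genes kept apart from this list (Ifitm1, Ifitm2, Ifitm3, Bst2 and Ly6e) had another order. They summed to 7161, 5315 and 6664 CPM in stem-, lymphoid- and myeloid-high cells of library 1 and to 7203, 5194 and 6749 CPM in library 2, lowest in lymphoid-high cells.

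The genes most like each group across 8 cell classes were found by the lower of both libraries' Pearson r over log2 levels, among 4496 genes with at least 200 UMIs in each library. These 8 classes were the stem-, lymphoid-, myeloid- and no-list-high cells, each split into mitotic-high and other cells. They share libraries and depth, so r is a description. Genes that followed the chain sum closely included Tspan13 (0.93 and 0.98), a tetraspanin gene, Tsc22d1 (0.90 and 0.96), Gimap6 (0.88 and 0.92) and Gtpbp2 (0.90 and 0.86). The immunoproteasome sum was followed by Ncf1 (0.88 and 0.91), a subunit of the phagocyte NADPH oxidase, Adgrg3 (0.87 and 0.88), Sh3bgrl3, Emb and H2afy. The loading sum was followed by Phkg2 (0.94 and 0.90), Ddx55, Prorsd1, Taf13 and Arhgap30. The chain sum had r of -0.48 and -0.28 with Psmb8, -0.41 and -0.55 with Psmb10, and 0.43 and 0.59 with Psmb9. With Tap2 it was 0.47 and 0.54, with Tap1 -0.09 and 0.08, and with Tapbp -0.58 and -0.17. Over all 4496 genes the lower r with the chain sum had a median of -0.26 and a 95th percentile of 0.47.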

How the data were processed

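Droplet-based 3′ single-cell RNA was measured in 2 samples, 1 wild-type and 1 Spp1-/-. Cell Ranger 1.1 and mm10 are named in the submitters' processing notes; filters and the counting of reads matching several genes are not stated in the sources used here. What the authors deposited is 1 pooled matrix holding UMI counts of 27998 genes in 7884 barcodes. Barcodes with at least 500 genes and under 10% mitochondrial UMIs were kept. Counts were summed per library and cell class and scaled to 1000000 UMIs (CPM). Classes were set on cells thinned to 2000 UMIs: limits were the 75th percentile of each list's UMIs averaged over libraries, at least 2. No doublet caller was run, so doublets remain. The median depth was 2830 and 3836 UMIs per cell. Intervals are exact Poisson, Clopper-Pearson or conditional Poisson intervals and were checked on simulated data. Genes with at least 50 UMIs in a comparison gave the background.

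The genes, lists and comparisons were chosen with earlier results of these data known. The genes named were the 10 themselves, pathway genes with at least 50 UMIs past a log2 ratio of 0.32 in the same direction in both libraries or among the 2 to 4 most counted of their list, and the 5 most like each group, with 10 CPM added before log2. Nlrc5, Psma4, Spp1, single-library folds and sort markers were named after their values were seen. Some genes that this rule names are not reported here. Alternatives were TMM (edgeR 4.0.16, R 4.3.3), median-of-ratios scaling, no ribosomal protein UMIs, mean over cells of CPM, a stricter filter, none, no class II-high cells, thinning to 1000 UMIs, 90th percentile limits and a minimum of 200 UMIs; leaving out barcodes found in both libraries was chosen after seeing the data. Analysis used Python 3.11.15 with scipy 1.17.1, numpy 2.4.6, pandas 2.3.3 and Biopython 1.88.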

Additional observations from a re-analysis of the deposited data

How the results depend on the processing

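No paired analysis was possible because each genotype has 1 sample and no test was made. Of 1080 ratios of single genes recomputed under the alternatives, 1008 stayed within counting error, 70 moved beyond it and 2 reversed: H2-Q4 in library 1, thinned to 1000 UMIs, was at 0.60 (lymphoid-high over stem-high; -0.45 in the report) and 0.23 (myeloid-high over stem-high; -0.59 in the report). The B2m ratio lymphoid-high over myeloid-high ran from 1.33 to 1.55 in library 1 and 1.26 to 1.37 in library 2 over 10 alternatives each, interferon-high over interferon-zero from 1.20 to 1.42 and 1.28 to 1.41, and mitotic-high over mitotic-low from 0.769 to 0.872 and 0.758 to 0.842. Psmb8, lymphoid-high over stem-high, ran from 1.15 to 1.18 and 1.19 to 1.24.

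Counts of genes past the fold are small and moved in 44 of 216 cases; the cause was not tested. Library 2 over library 1, higher genes numbered 0 under TMM, median-of-ratios, no ribosomal UMIs and mean over cells, and 1 without class II-high cells. Among genes with at least 200 UMIs 20.3% of 7525 passed. Lymphoid-high over stem-high, the higher were 4 and 2 when thinned to 1000 UMIs; the lower were 0 in library 1 and 1 in library 2 both when thinned and with 90th percentile limits, and 1 in library 2 with the mean over cells. Myeloid-high over stem-high, the higher in library 1 were 0 without ribosomal UMIs or with the mean over cells and 2 with 90th percentile limits, and 1 in library 2 when thinned. Lymphoid-high over myeloid-high, the higher in library 1 were 3 when thinned and with 90th percentile limits, and 1 in library 2 with the mean over cells; the lower in library 1 were 0 under TMM, median-of-ratios, no ribosomal UMIs and thinning. Mitotic-high over mitotic-low, the higher in library 1 were 0 with the stricter filter and thinning and 2 with 90th percentile limits and the mean over cells; the lower were 1 in library 1 under TMM, median-of-ratios, no ribosomal UMIs and thinning. In library 2 the lower were 2 under TMM, median-of-ratios and no ribosomal UMIs, and 0 with the mean over cells, the stricter filter, thinning and 90th percentile limits. Interferon-high over interferon-zero, the higher in library 1 were 2 when thinned and 1 without ribosomal UMIs, with the mean over cells, the stricter filter, 90th percentile limits and without barcodes found in both libraries. Adding Ifitm1, Ifitm2, Ifitm3, Bst2 and Ly6e to the interferon list left 0 and 1 cells without a UMI of it, so that alternative gave no value. Depth limits H2-Q4, Tap1, Tap2 and Tapbp most.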

Other observations

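A small set of cells rich in MHC class II transcripts had another balance of the class I pathway. Cells with at least 20 UMIs of H2-Aa, H2-Ab1, H2-Eb1 and Cd74 numbered 41 of 3253 in library 1 (1.26%, 0.906 to 1.71) and 2 of 4570 in library 2, so only library 1 can be described. In these 41 cells Psmb8 was at 1869 CPM against 1319 CPM in the rest (ratio 1.42, 1.26 to 1.59) and Psmb9 at 554 against 303 CPM (1.83, 1.46 to 2.26), while Psmb10 was at 218 against 243 CPM (0.897, with an interval that includes 1). The loading genes together were at 411 against 217 CPM (1.89, 1.46 to 2.42), with Tap1, Tap2 and Tapbp on 19, 22 and 25 UMIs.

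The chain genes of the same cells were not higher as a group, at 4074 against 4533 CPM (0.899, 0.831 to 0.971). B2m was at 2336 against 2636 CPM (0.886, 0.798 to 0.981), H2-K1 at 623 against 941 CPM (0.662, 0.538 to 0.806) and H2-D1 at 1109 against 935 CPM (1.19, 1.02 to 1.38). Psmb8 made up 95.5% (92.6 to 97.5) of its pair with Psmb5 and Psmb9 53.3% (45.4 to 61.0) of its pair with Psmb6. Of the dendritic cell markers, Xcr1 had 14 UMIs here and 0 in the other cells of the library, Clec9a 7 and 2, and Cst3 2241 and 5281, while Siglech had 0 and Cd209a none in either. The cells come from 1 library, and their source was not tested. Leaving them out moved the count of genes past the fold between the libraries from 2 to 1.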
